A study of Rattus norvegicus with 3 samples.

Results

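Oligodendrocyte lineage and myelin genes were described in motor cortex of 3 male Sprague-Dawley rats. A list of 39 gene symbols, running from precursor markers through committed cells to mature myelin, was matched to gene names exactly. Of these, 38 were found, each in 1 row, among 30957 genes in all, and Lhfpl3 is not analysed here. Blood supply to the brain had been interrupted and restored in every rat (cerebral ischemia and reperfusion), and each had been given electroacupuncture at the GB20 (Fengchi) acupoint. The labels give a time of 8 weeks without saying what it is counted from, and number the animals 12, 24-4 and 33, with 1 library each. All 3 rats thus formed 1 group, and sham-operated, untreated or unstimulated animals were not analysed here. What can be described is therefore how high each gene stood and how far treated animals differed, not what ischemia or acupuncture did.

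Oligodendrocytes are the cells that wrap axons of the brain and spinal cord in myelin, a stack of lipid-rich membrane that speeds conduction and shields the axon. They arise from dividing precursors that carry the PDGF receptor alpha and the NG2 proteoglycan, pass through a short committed stage, and then switch on the genes for myelin proteins and myelin lipids. Transcription factors of the OLIG, SOX and NKX families and the myelin regulatory factor MYRF guide these steps. In the cortex, myelinated fibres are most dense in the deep layers and in the white matter beneath them.

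Levels are in FPKM, fragments scaled to the gene's length and to the library's size, so that genes can be set side by side. Values are the mean ± SD over 3 rats unless single rats are given. Differences are on the log2(FPKM + 1) scale, on which low genes differ by less than their FPKM ratio would say.

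Start-site sequences are given for 4 members whose values are described below, because these genes stand for the committed stage and for mature myelin. RefSeq (build GRCr8) held windows of 300 bases, 250 before to 50 after a start, for 29 of the 38 members and 31 starts, since Mbp and Nfasc have a pair each. The 200 bases just before each start are printed 5′ to 3′ on the gene's strand, with matches on either strand to the searched motifs in capitals. Those motifs were ACAATG and ACAAAG (SOX type), CAGCTG and CATATG (E-box), CTGGNAC (MYRF type) and TATAAA, and no pair of them overlapped in the printed stretches. Both starts of Mbp are shown, since they lie 79593 bases apart. Mouse Mbp likewise uses an upstream start for the Golli transcripts and a downstream one for classic myelin basic protein.
Enpp6, chr16:52026729-52026928, minus strand: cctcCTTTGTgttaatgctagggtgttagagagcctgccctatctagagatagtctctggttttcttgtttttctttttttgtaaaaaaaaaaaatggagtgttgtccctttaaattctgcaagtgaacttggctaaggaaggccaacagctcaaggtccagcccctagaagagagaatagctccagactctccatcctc
Mbp upstream start, chr18:78130452-78130651, plus strand: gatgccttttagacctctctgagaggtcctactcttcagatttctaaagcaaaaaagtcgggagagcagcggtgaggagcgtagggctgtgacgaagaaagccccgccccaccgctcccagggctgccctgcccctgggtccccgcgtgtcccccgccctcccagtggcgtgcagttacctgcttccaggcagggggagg
Mbp downstream start, chr18:78210045-78210244, plus strand: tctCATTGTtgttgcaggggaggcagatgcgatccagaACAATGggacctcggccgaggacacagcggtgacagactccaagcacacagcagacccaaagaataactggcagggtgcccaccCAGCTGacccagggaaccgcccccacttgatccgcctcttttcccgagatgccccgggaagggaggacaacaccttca
Mag, chr1:95291045-95291244, minus strand: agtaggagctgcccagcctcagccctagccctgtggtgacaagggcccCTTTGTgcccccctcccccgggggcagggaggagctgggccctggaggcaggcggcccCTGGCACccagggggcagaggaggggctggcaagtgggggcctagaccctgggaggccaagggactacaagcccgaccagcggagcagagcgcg
Mobp, chr8:128747032-128747231, plus strand: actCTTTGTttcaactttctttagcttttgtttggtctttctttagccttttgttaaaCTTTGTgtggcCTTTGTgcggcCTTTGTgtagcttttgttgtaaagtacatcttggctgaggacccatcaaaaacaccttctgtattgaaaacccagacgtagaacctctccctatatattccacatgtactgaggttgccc

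The downstream Mbp start had 2 matches to ACAATG and 1 to CAGCTG in these 200 bases, while the upstream one had none of the motifs. Mobp had 4 matches to ACAAAG, Enpp6 had 1, and Mag had 1 beside 1 match to CTGGNAC. Over the whole windows, CTGGNAC was found in 12 of 31 member windows (38.7%), against 18.2% of all 33469 windows of that length. The share for ACAAAG was 19.4% against 18.8%, for CAGCTG 22.6% against 15.1%, for ACAATG 9.68% against 13.2% and for TATAAA 6.45% against 14.2%. CATATG was in 0 member windows and in 4.11% of all. Member windows had a median GC content of 63.0%, against 51.7% for all windows, and base composition alone can move how often a short motif is met.

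From the steps that low FPKM values take at short loci, depth was estimated at 15330000, 17230000 and 13000000 fragments for these libraries (rats 12, 24-4 and 33). An FPKM of 1 for a gene 1 kb long corresponds to 13.0 to 17.2 fragments. The exact 95% Poisson interval (counting error only) ran from 6.92 to 22.2 in the shallowest library and from 10.1 to 27.5 in the deepest. Mitochondrial transcripts took 26.6%, 14.4% and 20.9% of all FPKM, which lowers every other value least in rat 24-4. All 8 neuronal markers were present in every rat, from Snap25 (665 ± 445) to Gad2 (42.3 ± 16.4). Among markers of Schwann cells, the myelin-forming cells of peripheral nerve, Egr2 had the highest mean (1.25 ± 0.809), and Ncmap was listed at 0 in all rats.

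Myelin genes were among the most abundant transcripts of the tissue. Of the 38 members, 14 had a mean FPKM of at least 100, a level that 645 of all 30957 genes reached, and 7, with Neu4 at 0 among them, had a mean under 10. Summed over members, they made up 1.08%, 1.64% and 2.30% of the library's FPKM in rats 12, 24-4 and 33, or 1.48%, 1.91% and 2.91% with the mitochondrial genome left out. Mbp alone supplied 45.2%, 48.3% and 48.4% of that sum. Rat 33 thus had the highest member share on either base and rat 12 the lowest. Taken alone, precursor members (15.9, 14.6 and 25.2 FPKM) and myelin lipid enzymes (126, 124 and 259 FPKM) had their lowest sums in rat 24-4. In bulk tissue, fewer cells of a type and less RNA per cell cannot be told apart.

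**Figure D1:**
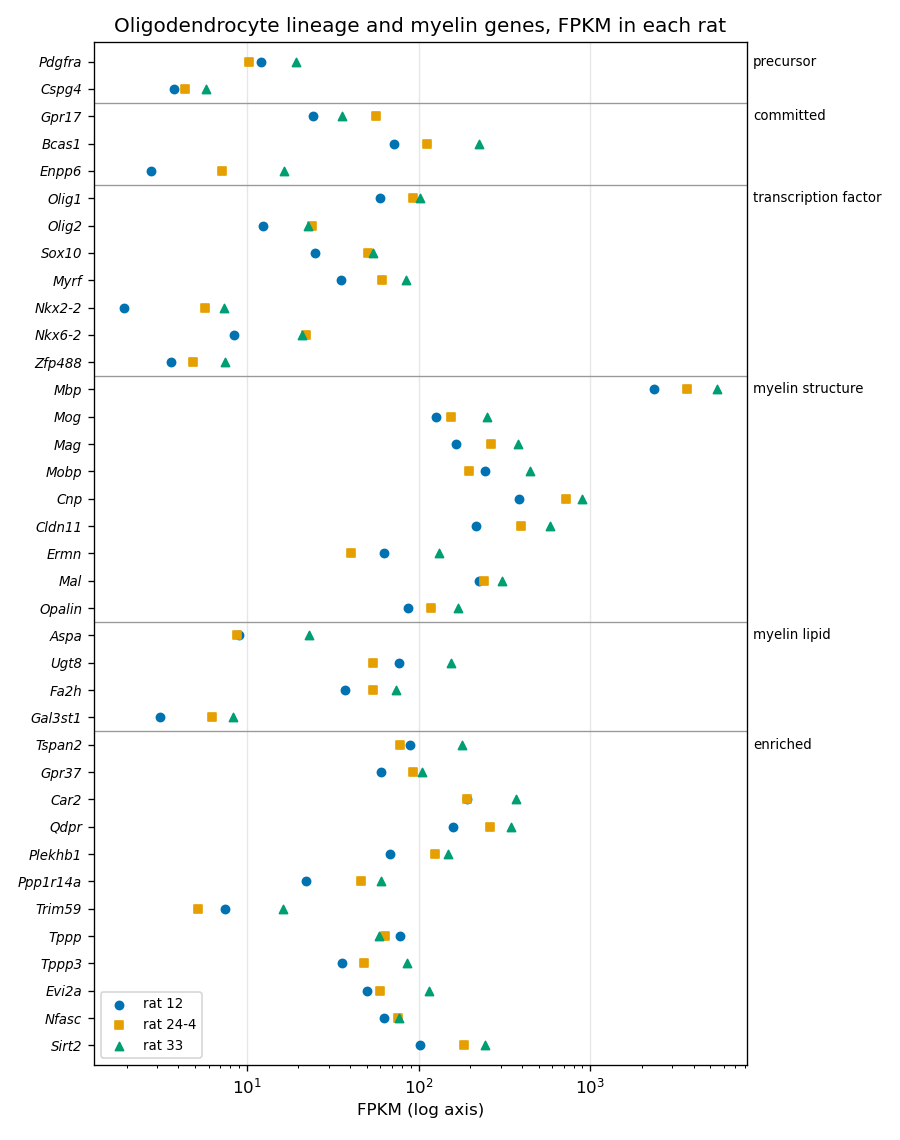
FPKM of the 37 members with a value above 0 in each rat (log axis), 1 point per rat, grouped from precursor to mature genes; Neu4, listed at 0, is not drawn. Mbp lies at the right at 2334 to 5460 FPKM and Cspg4 and Nkx2-2 at the left, and the rat 33 triangles are the rightmost in 33 rows.

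Most members had their highest value in the same animal. Rat 33 was highest for 33 of the 37 members with a mean FPKM of at least 1, where 42.0% of all 13754 genes tested were highest in that rat. Rat 12 was lowest for 29 of the 37, against 37.9% of all genes. The full order from rat 12 over rat 24-4 to rat 33 was seen in 26 of the 37, against 21.3% of all genes. The exceptions to rat 33 as the highest were Gpr17, Olig2 and Nkx6-2, which were highest in rat 24-4, and Tppp, which was highest in rat 12. The median member deviated from the mean of the rats by -0.50, 0.03 and 0.55 (log2) in rats 12, 24-4 and 33, beside -0.06, 0.01 and 0.07 for the median of all genes tested. With the mitochondrial genome left out, the members' median in rat 24-4 was -0.09, as was that of all genes, while those of rat 12 (-0.40) and rat 33 (0.55) kept their signs. With only a pair of rats the deviations mirror each other by construction. They were -0.23 in rat 24-4 and 0.23 in rat 33 without rat 12, -0.30 in rat 12 and 0.30 in rat 24-4 without rat 33, and -0.53 in rat 12 and 0.53 in rat 33 without rat 24-4. The place of rat 24-4 thus depended on which animal it was set against. Members share cells and libraries, so these counts describe 3 animals and are not independent observations.

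These differences between animals did not pass a test across all genes. With limma's residual variance set against that of genes of the same level and Benjamini-Hochberg adjustment over 13754 genes, 14 genes (0.102%) varied more than their level predicts, and 0 of the 37 members did. Before adjustment, 820 of the 13754 genes and 2 of the 37 members were under 0.05 by limma. The members were Enpp6 (adjusted p = 0.543) and Ermn (adjusted p = 0.809). The count over all genes was 104 without rat 12, 0 without rat 24-4 and 64 without rat 33, and that of members was 0 in each case. The ratio of the highest to the lowest rat ran from 1.23 for Nfasc to 5.92 for Enpp6, with a median of 2.30 over members and 1.63 over the 13734 tested genes above 0 in every rat. In simulated data for this comparison over the same 13754 genes, 0% of genes with 1 rat shifted 4-fold in FPKM + 1 were recovered and 96% of those shifted 16-fold. That simulation also called 8 genes that had not been shifted. The number of such calls depends on how many genes were shifted, so 8 is no estimate for the 14 calls in the data. With 0% recovered at 4-fold, spreads of the size seen in most members are outside what 3 animals can show by this test.

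Precursor genes, of which only Pdgfra and Cspg4 had a mean FPKM of at least 1, had the lowest median level of the roles. Pdgfra, the receptor for the platelet-derived growth factor that keeps precursors dividing, had 12.1, 10.3 and 19.3 FPKM in rats 12, 24-4 and 33 (13.9 ± 4.80). Its value in rat 33 stood above the other rats, which lay close together. Fibroblasts of the meninges and vessels also carry Pdgfra, and 4 fibroblast genes (Dcn, Col1a1, Col3a1 and Lum) summed to 27.3, 27.2 and 91.0 FPKM, likewise highest in rat 33. Their part in the Pdgfra values was not tested. Cspg4, which encodes the NG2 proteoglycan and is shared with pericytes, had 3.77, 4.37 and 5.82 FPKM (4.65 ± 1.05). Cspg4 was below Pdgfra in every rat, with a log2 difference of -1.37 ± 0.26. Neu4, a sialidase gene that also marks precursors, was listed at 0 in all rats. A 0 in these files can be a failed estimate, so its level is not known from them.

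The widest spread between animals was in a gene of newly formed oligodendrocytes. Enpp6, a choline phosphodiesterase gene used to mark cells that are just beginning to myelinate, had 2.78, 7.13 and 16.4 FPKM in rats 12, 24-4 and 33. No other member had so wide a range, and its SD of 1.10 (log2) compared with 0.37 predicted for a gene of its level. Bcas1, which marks early myelinating cells, had 72.01, 112 and 226 FPKM in the same order of rats (136 ± 79.8). Gpr17, a G protein-coupled receptor gene that is on mainly at the committed stage, departed from that order, with 24.3, 56.2 and 36.0 FPKM. Rat 24-4 was its highest animal, and Gpr17 exceeded Pdgfra there by 2.34 (log2), against 0.95 in rat 12 and 0.86 in rat 33. Enpp6 minus Opalin, a gene of mature cells, was -4.54, -3.87 and -3.29 (log2) in rats 12, 24-4 and 33, so the gap was narrowest in rat 33. The Gpr17 locus (chromosome 18, 24734330 to 24735349, Rnor_6.0) lies within that of Lims2 on the opposite strand, which had 2.71, 3.65 and 3.44 FPKM.

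All 7 lineage transcription factors were lowest in rat 12, as were all 3 committed genes, against 37.9% of all genes tested. Olig1, which encodes a basic helix-loop-helix factor of the lineage, had 59.3, 93.4 and 102 FPKM in rats 12, 24-4 and 33. Olig2, its neighbour on chromosome 11, which specifies the lineage, had 12.4, 24.0 and 22.8 FPKM. For each gene the values of rats 24-4 and 33 lay close together, and Olig1 minus Olig2, at 2.07 ± 0.13 (log2), had the smallest SD of the 14 pairs compared. Sox10, a high-mobility-group factor needed for myelin gene transcription, had 25.0, 50.5 and 54.4 FPKM. Myrf, whose product is the membrane-bound factor that turns on late myelin genes, had 35.3, 61.3 and 84.7 FPKM. Myrf was above Sox10 by 0.46 ± 0.18 (log2), with the same sign in all rats.

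The homeobox and zinc finger factors were lower. Nkx6-2, a repressor that accompanies myelination, had 8.43, 22.0 and 21.1 FPKM in rats 12, 24-4 and 33. Nkx2-2, which promotes the step from precursor to oligodendrocyte, had 1.92, 5.74 and 7.33 FPKM, and its ratio of highest to lowest rat of 3.83 was second to that of Enpp6 among members. Zfp488, an OLIG2 co-regulator, had 3.60, 4.85 and 7.51 FPKM. Nkx2-2 was below Nkx6-2 in every rat, with a log2 difference of -1.62 ± 0.19.

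Structural genes of myelin were highest in rat 33 without exception among the 9 members of this role, against 42.0% of all genes tested. The other roles were alike, with 4 of 4 lipid enzymes, 11 of 12 other enriched genes and 2 of 2 precursor genes. Transcription factors had 5 of 7 and committed genes 2 of 3. Mbp, which encodes the basic protein that binds the inner faces of the myelin membrane together (chromosome 18, 79326738 to 79437310, plus strand, Rnor_6.0), had 2334, 3669 and 5460 FPKM in rats 12, 24-4 and 33 (3821 ± 1569). It ranked 10 among all 30957 genes by mean level, and its 3 values were well apart. Cnp, an enzyme gene of the cytoplasmic channels of myelin (chromosome 10, 88490798 to 88497356, plus strand, Rnor_6.0), had 384, 720 and 893 FPKM. Cldn11, which forms the tight junctions of the sheath, had 217, 393 and 585 FPKM. Both followed the order of Mbp. Mag, a sialic acid-binding adhesion protein next to the axon, had 165, 264 and 380 FPKM. Mog, a protein of the outermost surface, had 127, 154 and 251 FPKM. The Mag minus Mog difference was 0.58 ± 0.20 (log2) and positive in every rat.

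The other members of this role were less uniform. Mobp, a small basic protein gene of compact myelin, had 245, 197 and 446 FPKM in rats 12, 24-4 and 33, so that rat 24-4 and not rat 12 was lowest. Ermn, a cytoskeletal gene of late oligodendrocytes, had 62.6, 40.6 and 131 FPKM and shared that order. Mal, a proteolipid gene of membrane sorting, differed little between animals, with 225, 240.2 and 306 FPKM. Opalin, a membrane glycoprotein gene of mature cells, had 86.8, 118 and 169 FPKM. Cnp minus Mbp was -2.60, -2.35 and -2.61 (log2) in rats 12, 24-4 and 33, a narrow range. Mobp minus Mbp was -3.25, -4.21 and -3.61, with rat 24-4 the farthest from 0.

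Enzymes of myelin lipids covered a wide span of levels. Ugt8, the transferase that makes galactosylceramide, had 77.1, 54.4 and 154 FPKM in rats 12, 24-4 and 33. Fa2h, which hydroxylates the fatty acids of that lipid, had 37.1, 54.3 and 73.8 FPKM. Both genes stood at about the same level in rat 24-4, with a log2 difference of 0.00, whereas Ugt8 exceeded Fa2h by 1.04 in rat 12 and 1.05 in rat 33. Gal3st1, which adds sulfate to make sulfatide, had 3.14, 6.27 and 8.31 FPKM, and Fa2h was above it by 3.04 ± 0.14 (log2). Aspa, which frees acetate from N-acetylaspartate for lipid synthesis, had 9.05, 8.72 and 22.9 FPKM. Rat 33 was the highest for each of these enzymes, and the other rats exchanged places from gene to gene.

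Other oligodendrocyte-enriched genes included metabolic enzymes, signalling proteins and cytoskeletal regulators. Qdpr, which regenerates tetrahydrobiopterin, led them at 158, 260 and 347 FPKM in rats 12, 24-4 and 33. Car2, a carbonic anhydrase gene, had 190.4, 191 and 367 FPKM. Sirt2, a deacetylase of the myelin sheath, had 101, 185 and 243 FPKM. Values of rat 33 stood above both other rats in all 3 genes. Tspan2 (a tetraspanin), Plekhb1, Gpr37 (a receptor gene), Evi2a, Tppp3, Ppp1r14a and Trim59 had means from 9.68 ± 5.86 for Trim59 to 116 ± 55.8 for Tspan2, all highest in rat 33. Plekhb1, a pleckstrin homology domain gene, had 68.5, 124 and 149 FPKM. Ppp1r14a, a phosphatase inhibitor gene, had 22.0, 46.5 and 60.3 FPKM. Both kept the order of Mbp, as did Gpr37, Tppp3 and Evi2a. Tspan2 had 88.8, 78.4 and 179.8 FPKM and Trim59 had 7.52, 5.21 and 16.3 FPKM, so rat 24-4 was the lowest for these genes. The Evi2a locus lies within that of Nf1 on the opposite strand. Since the sources used here do not say whether strand was used in counting, Evi2a is uncertain. So are Gpr17, Sox10, Mog, Ermn and Tppp3, each of which overlaps a gene on the opposite strand. The overlapping genes were listed at lower values than these members. Nf1 had 10.7, 8.80 and 8.65 FPKM in rats 12, 24-4 and 33. The gene opposite Sox10 had at most 0.236, that of Mog 7.11, that of Ermn 0.0680 and that of Tppp3 3.21. How far the overlap moved the members' values was not tested.

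Tppp and Nfasc differed least between animals. Tppp, a tubulin polymerisation-promoting protein gene, had 78.5, 64.0 and 58.5 FPKM in rats 12, 24-4 and 33 and was the one member with its lowest value in rat 33. Nfasc, the gene of neurofascin, which has a glial form at the paranode and a neuronal form at the node, had 62.7, 75.4 and 77.3 FPKM. Their SDs of 0.21 and 0.16 (log2) were the smallest of the 37 members, beside a median of 0.60 for members and 0.32 for all genes tested. Tppp minus Tppp3, its paralogue, was 1.11 in rat 12, 0.41 in rat 24-4 and -0.54 in rat 33, the 1 pair of 14 whose sign differed between animals. Sirt2 minus Tppp was 0.37, 1.52 and 2.04 in the same order. Without rat 12, Tppp minus Tppp3 averaged -0.06, against 0.33 over all rats.

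**Figure D2:**
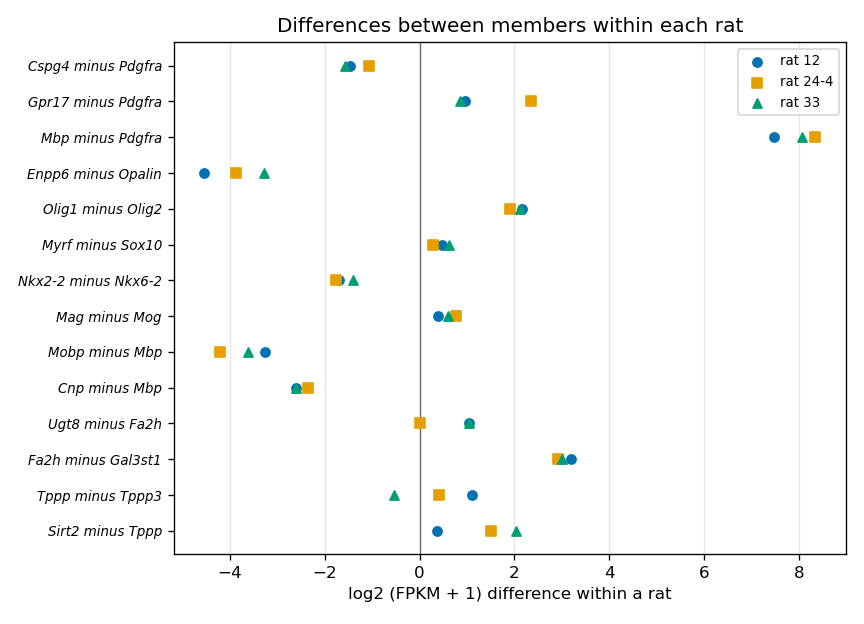
Difference in log2(FPKM + 1) between the first and the second gene of 14 pairs of members, 1 point per rat. Points of the 3 rats have the same sign in 13 pairs, though Ugt8 minus Fa2h is at 0.00 in rat 24-4, and lie on both sides of 0 for Tppp minus Tppp3. The points of Olig1 minus Olig2 and Cnp minus Mbp are close together.

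Of the 14 pairs, 13 had 1 sign in all 3 rats. For these, an exact two-sided sign-flip test returned p = 0.25, which is as low as 3 rats can reach, and a Benjamini-Hochberg value of 0.269 over the 14 pairs. For Tppp minus Tppp3 the exact p was 0.75. No pair could therefore pass 0.05. The pair with the largest difference was Mbp minus Pdgfra, at 7.48, 8.35 and 8.07 (log2) in rats 12, 24-4 and 33. In FPKM that was a ratio of 193, 357 and 282.

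By role, precursor genes had the lowest median, structural myelin genes the highest and the other enriched genes the next highest in every rat. Medians on the log2(FPKM + 1) scale were taken over members with a mean FPKM of at least 1. They were 3.17 ± 0.34 for precursor genes (Pdgfra and Cspg4 only), 5.24 ± 0.59 for committed genes and 4.32 ± 0.50 for transcription factors. Structural myelin genes had 8.09 ± 0.43, myelin lipid enzymes 4.74 ± 0.58 and the other enriched genes 6.38 ± 0.38. Myelin structure minus precursor was 4.79, 4.95 and 5.01 in rats 12, 24-4 and 33, a range narrower than that of either level. Committed minus precursor was 1.68, 2.88 and 1.65, where rat 24-4 stood apart through Gpr17, the middle of the 3 committed genes. With Neu4 counted at its listed 0, the precursor median would be 2.48 and the myelin minus precursor difference 5.60. These levels are descriptions and were not tested.

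A set of 7 members was lowest in rat 24-4 and not in rat 12. They were Pdgfra, Mobp, Ermn, Aspa, Ugt8, Tspan2 and Trim59, which come from 4 of the 6 roles, and make up 18.9% of the 37, beside 33.3% of all genes tested that were lowest in that rat. Their deviations in rat 24-4 ran from -0.36 for Pdgfra to -0.76 for Ermn (log2). At the other end, Gpr17 at 0.60 was the highest member in rat 24-4. The 7 transcription factors ran there from -0.07 for Zfp488 over 0.11 for Myrf and 0.17 for Olig1 to 0.45 for Nkx6-2, with Sox10, Nkx2-2 and Olig2 between 0.29 and 0.32, and their difference from other members was not tested. All 7 remained lowest in rat 24-4 with the mitochondrial genome left out and with median-ratio scaling, but neither setting could have changed this. The first raises the values of rat 24-4 least, so a gene lowest there stays lowest. The second lowers rat 24-4 relative to rat 12, and all 7 were well above it in rat 33. Cspg4, Mal and Car2 joined the 7 in the first case, where 43.8% of all genes were lowest in rat 24-4, and Car2 in the second.

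**Figure D3:**
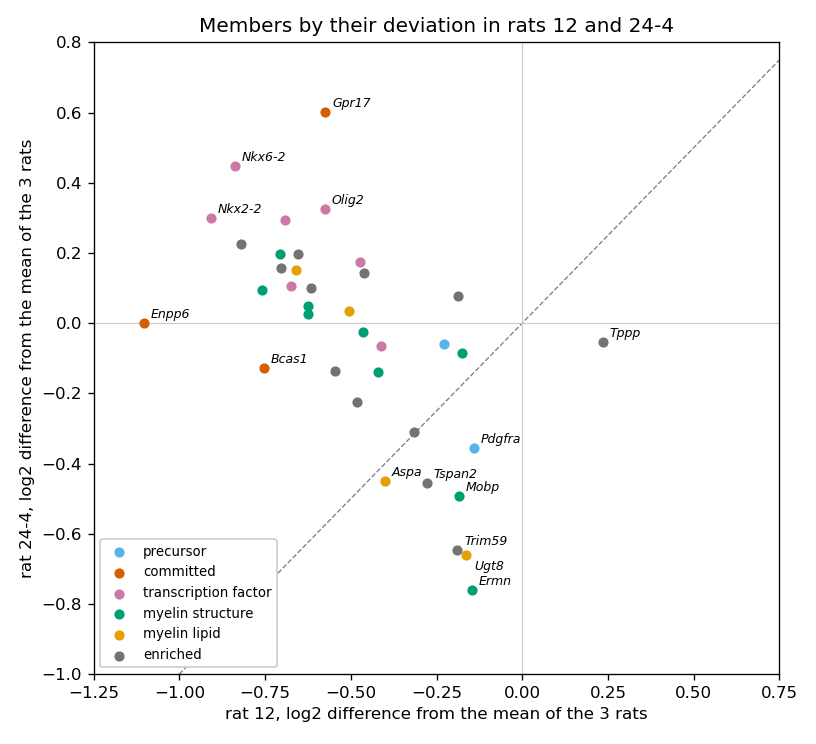
Deviation from the 3-rat mean on the log2(FPKM + 1) scale for each of 37 members, rat 12 on the horizontal and rat 24-4 on the vertical axis, coloured by role, with the dashed line where both are equal. The genes named below the line, from Pdgfra to Ermn, are those lower in rat 24-4 than in rat 12, and Tppp also lies below it as the 1 member above 0 in rat 12.

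Further myelin genes that are not members were also mostly highest in rat 33. Of 24 such genes, 23 had a mean FPKM of at least 1, and 0 varied by limma's adjusted p. Of the 23, 21 were highest in rat 33 and 17 lowest in rat 12, against 42.0% and 37.9% of all genes tested. Their median deviations were -0.56, -0.03 and 0.63 (log2) in rats 12, 24-4 and 33. Tmem125 had the lowest mean above 0, listed at 0, 0.0420 and 0. Enpp2, which the choroid plexus also makes in quantity, had 264, 67.5 and 865 FPKM, highest in rat 33 and lowest in rat 24-4 as the choroid plexus genes were.

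Other precursor-associated genes had no common order of rats. Of 12 matched genes, 4 were highest in rat 33, 4 in rat 24-4 and 4 in rat 12. Of all genes tested, 42.0%, 34.2% and 23.8% were highest in these rats. The median deviations of the 12 genes were -0.04, 0.13 and -0.06 (log2) in rats 12, 24-4 and 33. Cspg5, a brain proteoglycan gene, had the highest mean of 61.5 ± 13.6 FPKM. Many of these genes are also active in neurons or astrocytes, and the part of those cells in the values was not tested. Signals and regulators of differentiation had medians of -0.14, -0.04 and 0.24, from Lingo1, a neuronal inhibitor of myelination (97.6 ± 36.9), to the cytokine gene Lif (0.118 ± 0.0245). No tested gene of either list varied by limma's adjusted p over all genes.

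Genes of the axon's side of the myelinated fibre were mostly lowest in rat 33. Of 10 genes of the node and paranode, which come mostly from neurons, 8 were lowest in rat 33 and 8 were highest in rat 12, where 28.9% and 23.8% of all genes tested were, with median deviations of 0.40, 0.07 and -0.45 (log2) in rats 12, 24-4 and 33. Cntn1, an adhesion gene of the paranode, had the highest mean (98.9 ± 38.3) and Kcna2, a juxtaparanodal potassium channel gene, the lowest (19.0 ± 10.6). Cntn1 departed from the pattern, with 112, 55.9 and 129 FPKM in rats 12, 24-4 and 33, and was the 1 gene of the 10 highest in rat 33. By limma's adjusted p, 0 of the 10 varied. The 8 neuronal markers had medians of 0.49, 0.01 and -0.39, with 7 of 8 lowest in rat 33, against the same 28.9%. Tppp, the 1 member lowest in rat 33, had deviations of 0.24, -0.05 and -0.18. Whether more glial or less neuronal RNA sets these differences cannot be told apart in FPKM, a scale relative to the whole library.

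Several glial and vessel markers were, like the members, highest in rat 33, where 42.0% of all genes tested were. Their part in the members' values was not tested. The 7 microglial markers were all highest in rat 33 and lowest in rat 12, with summed FPKM of 160, 245 and 409 in rats 12, 24-4 and 33, led by C1qa (95.7 ± 54.7) with Aif1 lowest (10.1 ± 5.41). Of 8 astrocyte markers, 5 were highest in rat 33, and their sums were 1384, 2391 and 3180, with Gfap at the top (931 ± 657) and Aldh1l1 at the bottom (7.62 ± 3.95). The 4 fibroblast genes, from Dcn (14.6 ± 9.01) to Lum (7.21 ± 6.34), were all highest in rat 33. Of 6 vessel genes, from Rgs5 (49.7 ± 22.2) to Kdr (3.32 ± 1.49), 5 were highest in rat 33, with sums of 121, 119 and 165.

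The choroid plexus genes did not keep the order of the myelin genes. Their sums were 3324, 129 and 13115 FPKM in rats 12, 24-4 and 33. Rat 24-4 was lowest for 6 of 6, from Ttr (5368 ± 6577) to Aqp1 (18.9 ± 23.0), against 33.3% of all genes tested. Ttr, Kl, Clic6 and Kcnj13 varied by limma, with adjusted p-values of 0.0492, 0.0170, 0.0170 and 0.02, while 0 genes of the whole table did without rat 24-4 or with the mitochondrial genome left out. Striatal genes, from Ppp1r1b (79.0 ± 15.8) to Drd2 (1.36 ± 0.436), had medians of 0.06, 0.24 and -0.30 (log2). Of these, 4 of 5 were lowest in rat 33, against 28.9% of all genes.

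**Figure D4:**
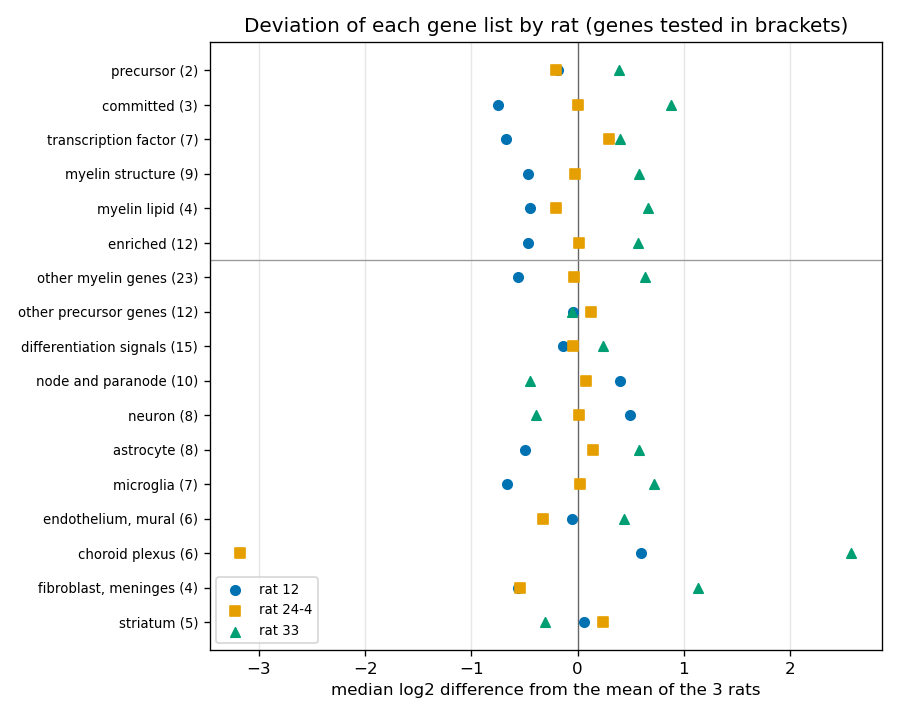
Median deviation from the 3-rat mean on the log2(FPKM + 1) scale for each role of the members (above the line) and for other gene lists (below it), 1 point per rat, with the number of genes in brackets. All 6 roles have rat 33 on the right, node and neuron lists have it on the left, and the choroid plexus list has rat 24-4 at -3.17 and rat 33 at 2.58.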

How the data were processed

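RNA of motor cortex from 3 rats of 1 group was measured, 1 library per animal. Per the labels' protocols, mRNA was taken from purified total RNA, fragmented and built into cDNA libraries. The deposited values are FPKM, which the authors computed from normalized fragment counts, per the series' design text. Rnor_6.0, HISAT2 (2.0.4) and StringTie (1.3.0) come from the submitters' processing notes. How counts were normalized, and whether strand was used, is not given in the sources used here.

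Values were put on the log2(FPKM + 1) scale, and tests used 13754 genes whose mean FPKM was 1 or more. For each gene limma (3.58.1, R 4.3.3) fitted an intercept with a trended, robust prior. Residual variance over prior variance was referred to an F distribution (one-sided), with Benjamini-Hochberg adjustment over all genes and a threshold of 0.05. The step was tested on simulated data. Pairs had an exact two-sided sign-flip test. For depth, low values at loci up to 400 bp were used, of which 93.9% of 639, 93.4% of 620 and 93.6% of 661 were whole fragments within 0.02 in rats 12, 24-4 and 33. Remaining steps ran in Python 3.11.15 with scipy 1.17.1, pandas 2.3.3 and numpy 2.4.6. Start-site windows came from RefSeq (GRCr8).

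Members, gene lists and pairs were chosen with earlier results of these data known. All members are named, and of each other list the genes with the highest and lowest mean and those that varied. Some of these genes are not reported here. Enpp2, Col1a1, Col3a1, Ncmap and Lims2 were named after their values were seen. The limma p-value sets a gene's spread between 3 animals against that predicted for its level. The sign-flip p-value sets a pair's mean difference against those with the signs of rats flipped, and does not measure spread. Alternatives were another pseudocount, other filters, a prior that is not robust, rescaling without the mitochondrial genome, median-ratio scaling and leaving out each rat.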

Additional observations from a re-analysis of the deposited data

How the results depend on the processing

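No member varied by limma's adjusted p under any of the alternatives. At an unadjusted p under 0.05 by limma there were 1 to 4 of 37 members. Over all genes there were 624 to 903, of 13460 to 18983 tested. The count of variable genes over the whole table, 14, was 23 with a pseudocount of 0.1 and 0 with the filter lowered to a mean of 0.1 or dropped, with a prior that is not robust, or with the mitochondrial genome left out. It ran from 0 to 104 with a rat left out, the prior being estimated anew each time. Where it was 0, limma gave 624 to 903 genes below 0.05 before adjustment. The second degrees of freedom of the F distribution, taken from the prior, were 3.10 to 6.66 in those cases and at least 7.86 in the others. The cause was not tested. Members highest in rat 33 numbered 35 with the mitochondrial genome left out, where 41.9% of all genes tested were highest in that rat. With median-ratio scaling they numbered 32, against 34.9% of all genes. They numbered 33 without rat 12 and 36 without rat 24-4. With only a pair of rats these counts cannot be set beside those over 3 rats, and their share over all genes was not computed. These choices were made after seeing the data. Leaving out the mitochondrial genome raised the median of all genes to 3.72 from 3.48 (log2). The members' median deviations less those of all genes were -0.44, 0.01 and 0.48 there, beside -0.45, 0.02 and 0.48 as deposited. The myelin minus precursor difference was 5.09 with a pseudocount of 0.1, and 5.60 with Neu4 at its listed 0, which put the precursor median at 2.48. Tppp minus Tppp3 reversed without rat 12, at -0.063, and over the rats left out ran from -0.063 to 0.76. No analysis paired between conditions was possible because there was 1 group, and genes were paired within rats only. Pseudocounts do not enter the FPKM levels.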
